A study of Rattus norvegicus and Homo sapiens with 12 samples.

Results

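The inhibitor of apoptosis (IAP) genes BIRC2, BIRC3, XIAP, BIRC5 and BIRC6, together with CFLAR, were measured in parental DU145 cells (F0 DU145) and in DU145 cells selected with conditioned medium of mesenchymal stem cells (MSC CM; F2 DU145). These 6 genes of the 60107 listed in the human table were chosen by name and found by their Ensembl identifiers. BIRC3 fell by 39.0% in F2 cells and CFLAR by 11.7%, whereas BIRC2, BIRC5, BIRC6 and XIAP did not pass the test. The fall of BIRC3 passed in all 6 fits that left out 1 library, and that of CFLAR in 3 of 6. The study asked how cells that survive MSC CM differ from parental cells, and these genes encode proteins that hold back cell death.

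DU145 is a human prostate cancer cell line that grows without androgen. F0 cells are the untreated parental cells. F2 cells went through rounds of 72 h in CM of human MSCs and had 48 h in complete medium to recover between rounds. The labels give 2 rounds and the description of the series gives 3. There were 3 F0 and 3 F2 libraries, and whether the 3 F2 samples came from separate selections is not stated, so p-values measure the spread between these samples only. Both populations were grown in DMEM with 10% FBS. The F2 population is made of the cells that outlived MSC CM and their progeny, so a change in expression within cells and a change in which cells are present cannot be told apart. In such bulk RNA, fewer cells with a transcript and less of it per cell also give the same value.

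IAP proteins share a zinc-binding fold, the BIR domain. XIAP binds caspases directly and blocks them, while the proteins of BIRC2 (cIAP1) and BIRC3 (cIAP2) act mainly as ubiquitin ligases in the TNF receptor complex, where they favour NF-kB signalling over cell death, and keep the kinase NIK (MAP3K14) low. Survivin, the product of BIRC5, belongs to the chromosomal passenger complex of dividing cells, and BIRC6 is a giant ubiquitin-conjugating enzyme. CFLAR (c-FLIP) resembles caspase-8 but lacks its protease activity, and it occupies the death-inducing complex at FADD. BIRC3 and CFLAR are both known as targets of NF-kB.

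RNA was read with QuantSeq, which primes on the poly(A) tail and sequences 1 fragment near the 3′ end of a transcript, here as single-end reads of 101 bases. A count therefore reports the 3′ end of a gene and adds up all isoforms that share it. Counts assigned to genes lay between 15879480 and 16479239 per library. Mitochondrially encoded genes took 5.71% to 6.003% of them in F0 and 10.2% to 10.6% in F2, and reads outside genes made up 9.60% to 10.0% of uniquely placed reads in F0 and 11.3% to 11.9% in F2. The summed level of 12 MSC markers was 5.96 to 7.33 CPM (counts scaled to a common library total) in F0 and 4.21 to 5.07 CPM in F2, and THY1, LUM, CXCL12, SPARC and POSTN were at 0 in every library. Of 6 markers of prostate epithelial lines, KRT5 was at 0 and the sum of the list was 1025 to 1097 CPM in F0 and 1325 to 1334 CPM in F2. In edgeR, KRT8 (log2 fold change 0.24, adjusted p = 0.019), KRT18 (0.20, 0.0026), KRT19 (0.67, 8.9e-09) and EPCAM (0.22, 0.044) were called higher in F2. KRT8 overlapped between the groups. CDH1, the gene of E-cadherin, fell from 13.99 to 5.779 CPM on average (log2 fold change -1.27, adjusted p = 7.6e-07 in edgeR). These marker genes were not examined under other scalings or without 1 library.

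In the last 500 bases of the principal coding transcript of each of the 6 genes, no stretch of 101 bases occurred in a transcript of another gene. The poly(A) signal motif nearest the end of the principal coding transcript of each gene is printed below, from GENCODE 29 on GRCh38, with the signal in capitals, because QuantSeq fragments lie just upstream of the end of a transcript. Which of its annotated ends a gene used in these cells was not measured. All 6 genes lie on the plus strand, and each of these windows lies in the 3′ UTR of the last exon.
BIRC2 (chr11:102378645-102378663): catctcAATAAAgtgcttt
BIRC3 (chr11:102337704-102337733): aaatttAATAAAgcaacaaaaattactctt
XIAP (chrX:123913942-123913971): gtattcAATAAAatactattctttaaaatt
BIRC5 (chr17:78225604-78225633): attgccAATAAAgtctcatgtggttttatc
BIRC6 (chr2:32618855-32618884): caaataAATAAAgacttaggtgaattagta
CFLAR (chr2:201176657-201176686): agcagcATTAAAactgttttactcagacca

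The first 5 genes carried AATAAA and CFLAR carried ATTAAA. Of all coding transcripts in this annotation, 44.2% held 1 of these 2 motifs in their last 50 bases on the transcript strand. CFLAR had 18 annotated coding transcripts with 18 different ends, BIRC2 had 9 with 9, XIAP 5 with 5, BIRC3 4 with 4, BIRC6 3 with 3 and BIRC5 6 with 4. Transcript models with an incomplete end were not left out, so these numbers need not be numbers of poly(A) sites. The count of each gene adds up whichever of its ends were used. BIRC2 and BIRC3 are neighbouring paralogs on chromosome 11, at 102347211 to 102378670 and 102317450 to 102339403. The longest run of bases that their principal transcripts share is 60 bases of coding sequence in exon 2 of each, at chr11:102350077-102350136 in BIRC2 and chr11:102324681-102324740 in BIRC3. It is printed here as their longest exact match.
BIRC2 and BIRC3: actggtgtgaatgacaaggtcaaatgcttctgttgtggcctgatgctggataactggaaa

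This run is shorter than a read and lies 2055 bases from the 3′ end of BIRC2 and 2216 bases from that of BIRC3. No stretch of 101 bases in the principal transcripts of BIRC2, BIRC3, XIAP, BIRC5 or BIRC6 occurred in a transcript of another gene, and 1.96% of such stretches did in CFLAR, none of them in its last 500 bases. Genes that overlap BIRC6, XIAP or CFLAR had at most 39 counts in any library.

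BIRC3 showed the largest change of the 6 genes. Its level was 157, 156 and 146 CPM in the 3 F0 libraries and 95.1, 93.1 and 91.7 CPM in the 3 F2 libraries, after scaling by the TMM method. The lowest F0 library stood well above the highest F2 library, and the raw counts behind these levels ran from 2471 to 2659 in F0 and from 1433 to 1488 in F2. The log2 fold change was -0.71 (standard error 0.049, 95% interval -0.82 to -0.61, adjusted p = 3.7e-09 from the quasi-likelihood test of edgeR with Benjamini-Hochberg adjustment over 14316 tested genes). BIRC3 stood at rank 41 of these genes by p and at rank 750 by the size of its change.

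CFLAR (ENSG00000003402, chromosome 2, 201116104 to 201176687) had levels of 250, 233 and 220 CPM in F0 and 209, 204 and 208 CPM in F2. The groups did not overlap, but the F0 libraries were spread more widely than the F2 libraries, with coefficients of variation of 6.42% and 1.26%. The log2 fold change was -0.18 (standard error 0.049, 95% interval -0.28 to -0.076, adjusted p = 0.015 in edgeR). The call was lost when F0 replicate 1 was left out (-0.13, adjusted p = 0.068), without F0 replicate 2 (-0.18, adjusted p = 0.063) and without F2 replicate 1 (-0.19, adjusted p = 0.054).

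**Figure D1:**
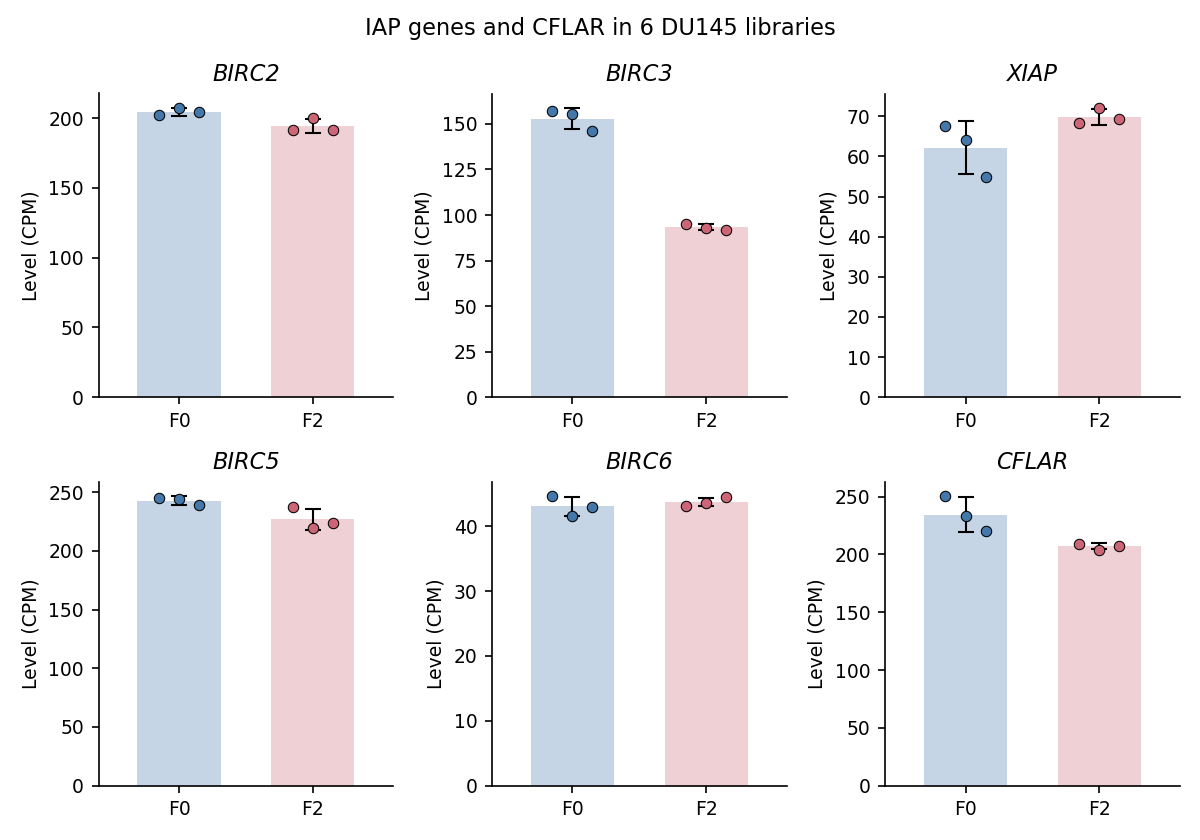
Levels of the 6 genes in TMM-normalized CPM (vertical axes, from 0), with 1 point per library, bars at the mean and error bars of 1 SD (n = 3) for F0 and F2 DU145. BIRC3 falls from between 146 and 157 CPM to between 91.7 and 95.1 CPM, while BIRC6 overlaps between the populations.

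BIRC2, the neighbour and closest relative of BIRC3 among the 6 genes, had levels of 202, 207 and 204 CPM in F0 and 192, 200 and 191 CPM in F2. All F2 libraries lay below all F0 libraries, by a small margin. The log2 fold change was -0.072 (95% interval -0.17 to 0.02, adjusted p = 0.29 in edgeR), which as a fold is 0.951 with an interval from 0.892 to 1.01. BIRC3 was also set against BIRC2 within each library, where no scaling enters. The ratio of BIRC3 to BIRC2 counts was 0.777, 0.750 and 0.716 in F0 and 0.496, 0.464 and 0.479 in F2. The difference in log2 ratio was -0.64, with no overlap between the populations and an exact two-sided permutation p of 0.1, the smallest that 3 against 3 can give (0.2 after adjustment over the 4 ratios examined).

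BIRC5 (ENSG00000089685, chromosome 17, 78214186 to 78225636) had levels of 245, 244 and 239 CPM in F0 and 237, 220 and 224 CPM in F2. The F2 libraries lay below the F0 libraries, although the highest F2 value came within 2 CPM of the lowest F0 value. This was a log2 fold change of -0.098 (95% interval -0.19 to -0.0039, adjusted p = 0.14 in edgeR), and the interval covers this 1 gene and is not widened for the number of genes tested.

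XIAP (ENSG00000101966, chromosome X, 123859724 to 123913979) was the member with the highest fold change. Its levels were 67.6, 64.1 and 54.8 CPM in F0 and 68.2, 72.1 and 69.4 CPM in F2. The F2 libraries lay above the F0 libraries, but the first F0 library came close to the lowest F2 library, and the coefficient of variation over F0 was 10.6%. The log2 fold change was 0.17 (95% interval 0.026 to 0.31, adjusted p = 0.095 in edgeR). It was 0.23 with an adjusted p of 0.023 without F0 replicate 1 and 0.085 with an adjusted p of 0.41 without F0 replicate 3, the lowest F0 library.

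BIRC6 (ENSG00000115760, chromosome 2, 32357028 to 32618899) had levels of 44.6, 41.6 and 43.0 CPM in F0 and 43.1, 43.6 and 44.4 CPM in F2. The populations overlapped. On the log2 scale the difference was 0.022 (95% interval -0.11 to 0.15, adjusted p = 0.86 in edgeR), and the sign turned with the scaling, to -0.068 with library size alone. As a fold, the interval ran from 0.926 to 1.11.

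All 6 genes passed the filter on low counts. In all, 2 of the 6 were past the threshold, beside 18.2% of all tested genes. Both were lower in F2, where 8.67% of tested genes were called lower. With all 6 libraries and no further term in the fit, none was called higher by edgeR or by DESeq2, beside 9.49% of tested genes, and XIAP (called without F0 replicate 1, as given above) was the 1 gene higher in F2 with an unadjusted p under 0.05. In 5 of the 6 the F2 libraries all lay on 1 side of the F0 libraries, beside 34% of tested genes. The median log2 fold change of the 6 was -0.085 and that of all tested genes was -0.0025. With TMM, 1358 genes were called higher and 1241 lower, so that 52.3% of the calls were higher. With library size alone these were 832 and 2805 (22.9% higher), the median of all genes shifted by -0.090, and BIRC2 (-0.16, adjusted p = 0.011) and BIRC5 (-0.19, adjusted p = 0.0046) were also called lower. The mitochondrial share, larger in F2, is part of library size. Without the mitochondrially encoded genes and again with TMM, BIRC3 had a log2 fold change of -0.71 and CFLAR of -0.18. These were the same as with them to 2 decimals. Scaling by library size alone was not fitted without those genes.

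**Figure D2:**
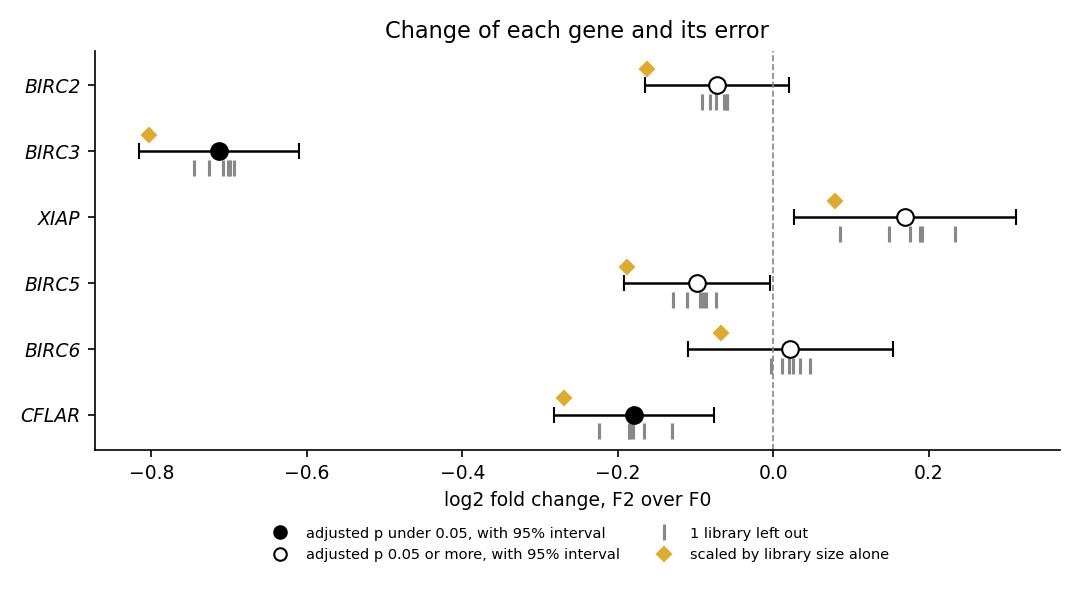
Log2 fold change of F2 over F0 (horizontal axis) for each of the 6 genes, with the 95% interval; filled points have an adjusted p under 0.05, grey ticks are the 6 fits without 1 library and diamonds the fit scaled by library size alone. BIRC3 lies between -0.74 and -0.69 in the fits without 1 library, and the tick for BIRC6 without F0 replicate 2 is at -0.0033, below 0.

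The other IAP genes had few or no counts. NAIP had 0 to 2 counts per library, BIRC7 had 4 to 10, and BIRC8 had 0 in every library, where 0 counts allow up to 0.182 to 0.189 CPM (3 counts per library, counting error only). That bound does not cover reads lost in counting to sequence shared with other genes, and shared sequence was not searched for these 3 genes. None of the 3 was tested. The proteins that work against IAPs or share their pathway were DIABLO (Smac) and HTRA2, which leave mitochondria and free caspases from XIAP, GSPT1, AREL1, UBA6, XAF1 and SEPTIN4. XAF1 was at 0 in all libraries and SEPTIN4 had 2 to 8 counts. By edgeR 0 of the 5 tested genes of this list of 10 were past the threshold, beside 18.2% of all tested genes. Of the 5, 1 had an unadjusted p under 0.05 in edgeR, and DESeq2 called 0 genes of the list. That 1 gene was UBA6, the enzyme that charges BIRC6 with ubiquitin, named after its value was seen. On the log2 scale it differed by -0.14 (adjusted p = 0.14).

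DIABLO had levels of 15.47, 12.90 and 11.66 CPM in F0 and 14.64, 13.64 and 10.97 CPM in F2, which overlapped. The ratio of XIAP to DIABLO counts was 4.37, 4.97 and 4.70 in F0 and 4.66, 5.29 and 6.33 in F2. The difference in log2 ratio was 0.20 (exact two-sided permutation p = 0.3, adjusted over 4 ratios 0.4), and it fell to 0.087 without F2 replicate 3.

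CASP8, which CFLAR resembles and restrains, had levels of 27.5, 32.8 and 37.3 CPM in F0 and 32.7, 33.6 and 34.4 CPM in F2. Its log2 fold change was 0.048 (95% interval -0.14 to 0.24, adjusted p = 0.76 in edgeR). The ratio of CFLAR to CASP8 counts was 9.11, 7.11 and 5.90 in F0 and 6.39, 6.07 and 6.03 in F2. The F0 libraries spanned the whole F2 range, and the difference of -0.24 in log2 ratio (exact two-sided permutation p = 0.4, adjusted over 4 ratios 0.4) shrank to -0.073 without F0 replicate 1. Against CASP8, a fall of CFLAR was not detectable beyond the spread of the F0 libraries.

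**Figure D3:**
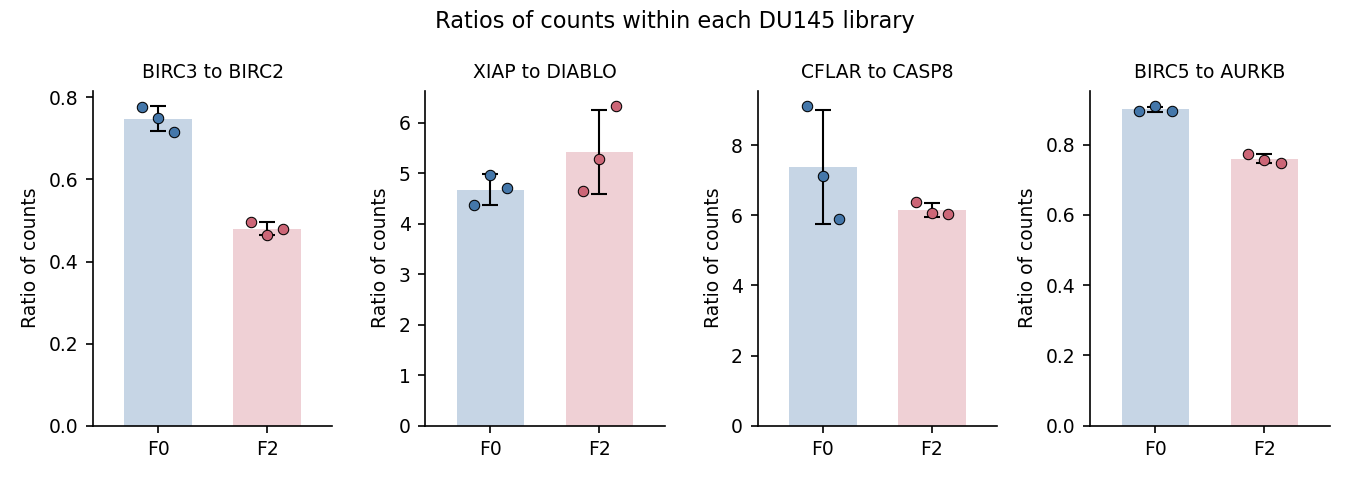
Ratio of raw counts of 2 genes within each library (vertical axes, from 0) for 4 pairs, with 1 point per library, bars at the mean and error bars of 1 SD (n = 3). BIRC3 to BIRC2 and BIRC5 to AURKB do not overlap between F0 and F2, and the other 2 ratios do.

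The list of the death-inducing complex held 15 genes, and it also took in decoy receptors, regulators and the necroptosis genes RIPK3 and MLKL. Of these 14 were tested, 5 rose and 0 fell, beside 9.49% and 8.67% of all tested genes, with a median log2 fold change of 0.093. FAS, TNFRSF10A and TNFRSF10B, named after their values were seen, were not called, nor were CASP8 and CASP10. The number called in the list was 2 without F0 replicate 2 or without F2 replicate 1 and 3 without F0 replicate 3. With library size alone 1 was called higher and 1 lower. PEA15, a death-effector-domain protein that, like CFLAR, can bind FADD, had 192, 163 and 147 CPM in F0 and 203, 203 and 189 CPM in F2. These overlapped, and the log2 fold change was 0.25 (adjusted p = 0.019 in edgeR). Its adjusted p was 0.10 without F0 replicate 2, 0.12 without F0 replicate 3, where the log2 fold change was 0.16, and 0.079 without F2 replicate 1. TNFRSF10D, a decoy receptor for TRAIL without a working death domain, rose from 50.7 ± 3.19 to 60.2 ± 1.48 CPM (SD, n = 3 each; log2 fold change 0.25, adjusted p = 0.0077 in edgeR), a call that was not made with library size alone (adjusted p = 0.067).

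MLKL, which opens membranes in necroptosis, rose from 14.7 ± 0.428 to 19.5 ± 1.13 CPM (SD, n = 3 each; log2 fold change 0.41, adjusted p = 0.0037 in edgeR). RIPK3, the kinase that acts on MLKL, was at 0 in every library. FADD, the adaptor that holds caspase-8 and CFLAR, differed by 0.17 on the log2 scale (adjusted p = 0.032 in edgeR), and it missed the threshold with DESeq2 (0.069) and without F0 replicate 1 (0.060), F0 replicate 2 (0.15) or F2 replicate 1 (0.18). The fifth gene that rose was FAF1, which binds FAS and FADD (log2 fold change 0.20, adjusted p = 0.020 in edgeR), and its adjusted p lay between 0.060 and 0.078 without F0 replicate 2, F0 replicate 3, F2 replicate 1 or F2 replicate 2. RIPK3, FADD and FAF1 were named after their values were seen. With library size alone neither FADD (0.30), FAF1 (0.19), TNFRSF10D nor PEA15 (0.11) was called, and MLKL was.

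The 7 caspases and apoptosome genes, all tested, had a median of -0.065. Of these 1 fell and 0 rose, beside 8.67% and 9.49% of all tested genes. This gene was CASP9, which XIAP inhibits and which the apoptosome activates. Its levels were 7.97, 9.69 and 10.0 CPM in F0 and 6.84, 4.61 and 4.78 CPM in F2, which did not overlap. On the log2 scale CASP9 fell by 0.77 (standard error 0.16, adjusted p = 0.0020 in edgeR). It was called in all 6 fits without 1 library. The count of the list was 2 without F0 replicate 1, with 1 higher and 1 lower. With library size alone it was 3, all lower.

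The TNF receptor complex, in which the proteins of BIRC2 and BIRC3 act, held 20 tested genes of 22 listed. IKBKG (0 to 2 counts per library) and RNF31 (0 to 3), named after their values were seen, were not tested. Of the 20 tested genes 2 rose and 1 fell, beside 9.49% and 8.67% of all tested genes, and the median log2 fold change was -0.046. Scaling by library size alone gave 1 called higher and 5 lower. MAP3K14 encodes NIK, the kinase of the alternative NF-kB pathway that cIAPs mark for breakdown. Its levels were 55.6, 52.0 and 47.8 CPM in F0 and 36.4, 34.3 and 42.0 CPM in F2, all F2 libraries lying below all F0 libraries. MAP3K14 fell by 0.46 on the log2 scale (standard error 0.078, adjusted p = 0.00031 in edgeR), so the transcripts of BIRC3 and of NIK were both lower in F2.

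TNFAIP3 encodes A20, an enzyme that edits ubiquitin chains and limits NF-kB. Its levels were 11.2, 13.9 and 10.4 CPM in F0 and 20.3, 21.2 and 21.2 CPM in F2. The populations were far apart, and the log2 fold change, 0.82 with a standard error of 0.11 (adjusted p = 2.0e-05 in edgeR), was opposite in sign to that of BIRC3. RBCK1, a subunit of the linear ubiquitin ligase, had 171, 183 and 174 CPM in F0 and 205, 182 and 207 CPM in F2 (log2 fold change 0.17, adjusted p = 0.027 in edgeR). These overlapped, and of the 6 fits without 1 library only that without F2 replicate 2 kept the call. In the other five the adjusted p lay between 0.051 and 0.14, and with library size alone it was 0.27.

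NF-kB subunits, inhibitors and targets, a list that left out BIRC3 and CFLAR, did not move 1 way. Of 33 listed genes 25 were tested, and their median log2 fold change was -0.12. Of the 25, 5 rose and 6 fell, beside 9.49% and 8.67% of all tested genes. With library size alone 5 were called higher and 13 lower. TNFAIP3 is in this list too. BCL2A1, a BCL2 relative that protects cells, rose from 11.3 ± 0.957 to 16.5 ± 1.41 CPM (SD, n = 3 each; log2 fold change 0.55, adjusted p = 0.0012 in edgeR). IER3, an early response gene, rose from 531 ± 52.8 to 685 ± 43.3 CPM (log2 fold change 0.37, adjusted p = 0.00022 in edgeR).

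The genes that fell in this list, like BIRC3, included NFKBIA, which encodes the inhibitor IkB alpha and is itself induced by NF-kB. Its levels were 655, 669 and 662 CPM in F0 and 526, 517 and 530 CPM in F2 (log2 fold change -0.34, adjusted p = 5.4e-06 in edgeR). NFKB2, the subunit that NIK acts on, had 75.9, 62.5 and 60.9 CPM in F0 and 51.7, 60.0 and 48.1 CPM in F2. The populations came within 1 CPM of each other, the log2 fold change was -0.32 (adjusted p = 0.012 in edgeR), and the call was lost without F0 replicate 1 (-0.21, adjusted p = 0.065), without F2 replicate 1 (0.059) and without F2 replicate 3 (0.073). The chemokine CXCL8 rose by 0.35 on the log2 scale (adjusted p = 0.0075 in edgeR), or by 0.28 without F2 replicate 3 (adjusted p = 0.055). CXCL1, another chemokine, rose by 0.73 (adjusted p = 0.0031 in edgeR). NFKBIA, NFKB2, CXCL8 and CXCL1 were named after their values were seen. TRAF1, which joins cIAPs to the receptor and is counted in both lists, averaged 3.88 ± 0.316 CPM over the F0 libraries and 2.72 ± 0.0768 CPM over the F2 libraries (SD, n = 3 each), a log2 difference of -0.51 that missed the threshold (adjusted p = 0.067 in edgeR), and it too was chosen after its value was seen.

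**Figure D4:**
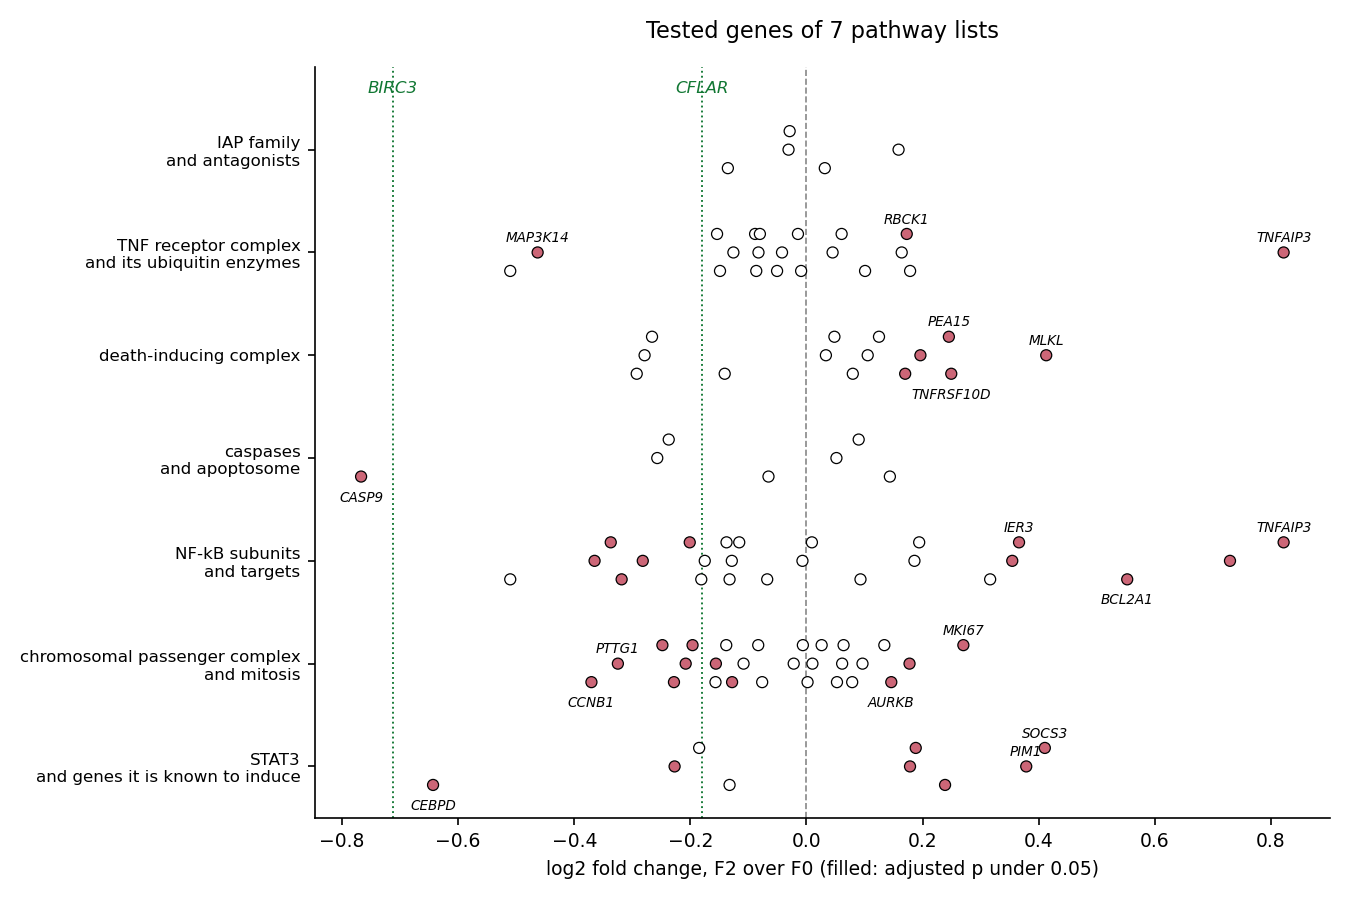
Log2 fold change of F2 over F0 (horizontal axis) of the tested genes in 7 pathway lists, 1 point per gene, filled where the adjusted p is under 0.05; vertical position within a row has no meaning. Dotted lines mark BIRC3 (-0.71) and CFLAR (-0.18), and SAA1 of the NF-kB list (-2.59, at 1.07 CPM or less on average in either population, named after its value was seen) lies outside the axis.

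Survivin works with AURKB, INCENP and CDCA8 in the chromosomal passenger complex. AURKB, the kinase of this complex, had 274, 269 and 266 CPM in F0 and 306, 290 and 299 CPM in F2, without overlap. Its log2 fold change was 0.15 (adjusted p = 0.022 in edgeR). The adjusted p was 0.11 without F0 replicate 2, 0.071 without F0 replicate 3, 0.13 without F2 replicate 1, 0.060 without F2 replicate 3 and 0.36 with library size alone. INCENP (-0.022, adjusted p = 0.88) and CDCA8 (0.053, adjusted p = 0.53) did not pass, and they were named after their values were seen. The ratio of BIRC5 to AURKB counts was 0.897, 0.909 and 0.897 in F0 and 0.774, 0.758 and 0.749 in F2. The difference in log2 ratio was -0.24, without overlap (exact two-sided permutation p = 0.1, the smallest possible, and 0.2 after adjustment over 4 ratios). AURKB's rise of 0.15 made up a larger part of it than the change of BIRC5, -0.098, which was not called.

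In the list of chromosomal passenger and mitosis genes, all 27 were tested, and the median was -0.022. Of the 27, 3 rose and 8 fell, beside 9.49% and 8.67% of all tested genes. Scaled by library size alone, 1 was called higher and 13 lower. CCNB1, the cyclin that drives entry into mitosis, fell from 140 ± 6.91 to 109 ± 6.59 CPM (SD, n = 3 each; log2 fold change -0.37, adjusted p = 8.1e-05 in edgeR). PTTG1, or securin, fell from 233 ± 8.97 to 186 ± 11.2 CPM (log2 fold change -0.32, adjusted p = 0.00014 in edgeR). MKI67, a gene of cycling cells, rose from 430 ± 28.7 to 519 ± 16.0 CPM (log2 fold change 0.27, adjusted p = 0.00059 in edgeR). FOXM1, a transcription factor of the cell cycle named after its value was seen, had a log2 difference of 0.18 (adjusted p = 0.040 in edgeR), but it was past the threshold in only 1 of the 6 fits without a library (that without F2 replicate 2) and neither with DESeq2 (0.073) nor with library size alone (0.30). BIRC5, with -0.098, thus lay between genes of dividing cells that rose and others that fell. The number of calls in this list was 4 without F0 replicate 2 or without F2 replicate 1 and 7 without F2 replicate 3.

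STAT3, which the study followed in F2 cells, is known to induce BIRC5 and other genes that protect cells. With MSC CM, the paper reported more total and phosphorylated STAT3 protein in F2 than in F0 PAIII cells, and a like result in DU145. In its assay of STAT3 activity in DU145, MSC CM gave a fall in F0 and no effect in F2. Those were responses minutes after MSC CM was added. The values here are RNA levels, another measure, and no such treatment just before harvest is given for these libraries. The list of STAT3 and its known targets held 9 genes, all tested and none of them among the 6 genes described here. Of the 9, 5 rose and 2 fell, beside 9.49% and 8.67% of all tested genes, with a median of 0.18. With library size alone the balance turned, with 2 called higher and 4 lower. SOCS3, the feedback inhibitor of this pathway, rose from 16.7 ± 1.21 to 22.1 ± 1.52 CPM (SD, n = 3 each; log2 fold change 0.41, adjusted p = 0.0039 in edgeR). PIM1, a survival kinase, rose from 31.3 ± 1.29 to 40.7 ± 4.27 CPM (log2 fold change 0.38, adjusted p = 0.0021 in edgeR). CEBPD, a transcription factor, fell from 84.6 ± 4.87 to 54.2 ± 2.92 CPM (log2 fold change -0.64, adjusted p = 3.1e-07 in edgeR). The transcript of STAT3 itself fell by 0.23 on the log2 scale (adjusted p = 0.00076 in edgeR), and MCL1, a BCL2 relative that blocks apoptosis, rose by 0.19 (adjusted p = 0.0040 in edgeR, but 0.095 with library size alone). The other 2 that rose were BCL2L1, a further protective BCL2 relative (0.24, adjusted p = 0.021, but 0.11 without F0 replicate 2 and 0.11 without F2 replicate 2, where the log2 fold change was 0.14), and the cyclin gene CCND1 (0.18, adjusted p = 0.0050). With library size alone the adjusted p was 0.13 for BCL2L1 and 0.12 for CCND1. STAT3, MCL1, BCL2L1 and CCND1 were named after their values were seen.

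The genes whose levels followed BIRC3 most closely over the 6 libraries, of 8644 with a mean of at least 10 CPM, were PDXK, a kinase of vitamin B6 (Pearson's r = 0.999), the adhesion molecule gene CADM1 (0.999) and HEATR5A (0.998). PDXK fell from 429 ± 11.8 to 251 ± 3.97 CPM, CADM1 from 75.2 ± 1.76 to 49.8 ± 1.205 CPM and HEATR5A from 120 ± 4.58 to 74.0 ± 0.710 CPM (SD, n = 3 each). Any gene with a tight fall between F0 and F2 has a high r with BIRC3, so these values describe the step between F0 and F2 that the genes share. For CFLAR the closest were KPNA6, a nuclear import receptor (r = 0.997), SERBP1, an mRNA-binding protein gene (0.993) and CENPB, a centromere protein gene (0.992). Their log2 fold changes were -0.15 for KPNA6 (adjusted p = 0.043 in edgeR), -0.11 for SERBP1 (0.085) and -0.20 for CENPB (0.028). The calls of KPNA6 and CENPB were each kept in 1 of the 6 fits without 1 library, that without F0 replicate 3, and neither passed with DESeq2 (adjusted p = 0.065 and 0.053). KPNA6 also missed the threshold without the filter on low counts (0.062). CFLAR's call was kept without F0 replicate 3, F2 replicate 2 or F2 replicate 3.

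Genes around the called members were examined after the values were known. Of all tested genes, 9.49% were called higher and 8.67% lower. Of 6 tested genes within 500 kb of BIRC3, 1 was called higher (MMP1) and 1 lower (TMEM123), and the median log2 fold change was -0.053. BIRC2 starts 29.8 kb beyond the start of BIRC3, with its value of -0.072 given above, and YAP1, the nearest tested gene on the other side, had -0.034 (adjusted p = 0.75). CFLAR lies beside the caspase genes CASP10 and CASP8, which start 66.8 kb and 117 kb beyond its start. CASP10 averaged 3.97 ± 0.470 CPM over the F0 libraries and 3.27 ± 0.420 CPM over the F2 libraries (SD, n = 3 each; log2 fold change -0.28, adjusted p = 0.34 in edgeR). Of 15 tested genes within 500 kb of CFLAR, 1 was called higher (AOX1) and 2 lower (ORC2 and TRAK2), with a median of 0.039.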

How the data were processed

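QuantSeq 3′ libraries of F0 and F2 DU145 (n = 3 each) were made from 500 ng of RNA. Alignment and counting were done by the authors on the Bluebee platform, and the deposited values are raw counts for each gene, not normalized. The submitters' processing notes name STAR 2.5.2a, HTSeq 0.6.0 and GRCh38, and the annotation and strand setting are not given in the sources used here. Reads outside genes and ambiguous reads stayed out of library sizes. Of 60107 identifiers 56104 matched a symbol. The PAIII table was not used here, because its identifiers were not matched to gene names here.

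Genes were filtered with filterByExpr (minimum count 10, total 15), scaled by TMM and tested between F2 and F0 by the quasi-likelihood method (F-test) in edgeR 4.0.16 (R 4.3.3), at a Benjamini-Hochberg adjusted p under 0.05. CPM values are TMM-normalized. Intervals of 95% are from the log2 fold change and its standard error. Ratios were taken within each library and compared by exact permutation tests. Alternatives were DESeq2 1.42.0, other scalings and filters, a replicate block and leaving out each library. Positions and sequences are from GENCODE 29 on GRCh38. Levels are not compared between genes.

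The 6 genes and the lists were chosen with earlier results of these data known. Genes named are the 6, up to 3 per list with the largest change past the threshold at a mean of at least 5 CPM, partners in ratios, 3 further IAP genes, and the 3 genes most like each called member. Others are marked as chosen after their values were seen. The procedure was tested on simulated data. Replicates of a group differed by more than sampling noise in every pair. Some genes of the lists are not reported by name here.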

Additional observations from a re-analysis of the deposited data

How the results depend on the processing

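Under 13 alternatives for each of 43 named genes, 488 of 559 log2 fold changes kept their direction and their side of the threshold, and 69 of 78 did so for the 6 genes described here. BIRC3 was called lower in every one of them (-0.80 to -0.69). With library size alone in place of TMM, 4 of the 6 genes were called, as were 1 gene of the IAP family and antagonists (UBA6), 6 of the TNF receptor complex, 2 of the death-inducing complex, 3 of the caspases, 18 of the NF-kB list, 14 of the mitosis list and 6 of the STAT3 list, and BIRC6 (-0.068) and CASP8 (-0.042) turned negative. The cause was not tested. Leaving out 1 library gave 1670 to 2621 called genes, with the lowest number without F0 replicate 2. For the 6 genes it gave 1 to 2 calls, for the death-inducing complex 2 to 6, for the caspases 1 to 2 and for the mitosis list 4 to 10. Those fits have fewer samples. BIRC6 ranged from -0.0033 (without F0 replicate 2) to 0.047, DIABLO from -0.12 to 0.091 (without F0 replicate 1, and 0.085 without F2 replicate 3) and CASP8 from -0.061 (without F0 replicate 1) to 0.16, and none of these values passed the threshold. DESeq2 called 1911 genes in all and 2 of the 6.

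The replicate block gave 2867 called genes and 3 of the 6, with XIAP added (0.17, adjusted p = 0.049). The labels give F0 and F2 the same replicate numbers. Same-numbered libraries correlated at 0.17, -0.039 and 0.17 in their deviations from the group means. Replicates 1 and 3 correlated best with their own number, and replicate 2 did not. With 3 libraries per group, these correlations cannot decide whether same-numbered libraries belong together. Genes such as NAIP and BIRC8 had too few counts to be tested.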
